A study of Mus musculus with 48 samples.

Results

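The oxysterol-binding protein-like genes encode lipid carriers of the OSBP family, and 10 of them, Osbpl3, Osbpl1a, Osbpl2, Osbpl5, Osbpl6, Osbpl7, Osbpl8, Osbpl9, Osbpl10 and Osbpl11, were taken by gene symbol from the 29221 genes measured in the livers of 48 mice. Osbpl3 was selected on its male read counts, because the effect of the labelled Pparg knockout on it differed between diets in males, so its values in male livers are given as a description, with no test. The other members were taken as its relatives. Osbp and Osbp2, the remaining genes of the family, are given for comparison.

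All mice carried a floxed Pparg gene and received an AAV8 virus after 16 weeks on diet. The virus carried either TBG-Cre, which places Cre recombinase under a hepatocyte promoter (labelled knockout), or TBG-null (control), so control mice were floxed and virus-treated too and only hepatocytes were targeted. Diets were low fat (LF) for 34 weeks, high fat (HF) for 34 weeks, or HF for 18 weeks and then a high fat, cholesterol and fructose diet for 16 weeks (HFCF). The labels class these livers as healthy, steatotic, and with non-alcoholic steatohepatitis. Males on HF and HFCF formed 4 groups of 6 livers, and females on LF, HF and HFCF formed 6 groups of 4 livers. There was no male LF group, and the mice are called adult with no age given.

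Proteins of this family hold 1 lipid at a time in a shared lipid-binding domain and carry it between membranes that lie close together. Many members bind VAP proteins of the endoplasmic reticulum (ER) and exchange a sterol or phosphatidylserine for phosphatidylinositol 4-phosphate (PI4P), which is made on the target membrane and removed in the ER. In the liver, such contacts serve the traffic of cholesterol and phospholipids between the ER, endosomes, lipid droplets and the plasma membrane.

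The members are dispersed over the genome and are related most closely in that domain. Osbpl3 (ENSMUSG00000029822) lies on the minus strand at chr6:50293330-50456201 (GRCm38). Its longest coding sequence in GENCODE M21 encodes 886 residues. A stretch of 8 residues, starting at residue 626 of the Osbpl3 protein, is identical in all 12 proteins of the family. The 24 coding bases of that stretch are shown for Osbpl3, for its closest relatives Osbpl6 and Osbpl7, and for Osbpl5 and Osbpl11, which together with Osbpl7 were lower in HF males labelled knockout. Sequences run 5′ to 3′ on the coding strand, and capitals mark bases that differ from Osbpl3.
Osbpl3: gagcaggtcagccaccacccacct
Osbpl6: gaAcaAgtTagccaTcaTccaccC
Osbpl7: gagcaggtcTCccaccaTccTccG
Osbpl5: gaAcaggtGTCTcaccaTccTcct
Osbpl11: gagcaggtTTCccaTcaTccTccA
The Osbpl3 stretch lies at chr6:50312678-50320042 and crosses an exon junction. Osbpl7 differed from Osbpl3 at 5 of these 24 bases, Osbpl6 at 6, and Osbpl5 and Osbpl11 at 7 each. Osbpl2 differed at 2 bases and Osbp2 at 3. The longest identical run between any transcript of Osbpl3 and one of another family member was with Osbpl6 and had 29 bases, in coding sequence at chr6:50303067-50303095.
Osbpl3 and Osbpl6 shared run: gtgcaccggctgtttgggaaatggcacga
With Osbpl7 the longest run had 17 bases.

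Libraries held 15338239 to 22072884 reads on genes. Levels are given as CPM, the read count scaled to a common library size with TMM factors. Hepatocyte markers (6 genes such as Alb) summed to 40622 CPM or more in every library, while adipocyte markers summed to at most 0.218 CPM and pancreas markers to at most 0.346 CPM. Pparg, counted over the whole gene, was not lower in any labelled-knockout group: its mean was 41.2 ± 14 CPM in HF males labelled knockout against 34.3 ± 4.0 CPM in controls (SD, n = 6 each), and 55.9 ± 6.0 against 32.0 ± 5.6 CPM on HFCF. Whole-gene counts do not separate reads from deleted exons, so the counts do not check the deletion, and the libraries are called labelled knockout throughout. In whole liver, fewer cells of a type and less RNA per cell cannot be told apart.

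Per kilobase of transcript, Osbpl9 (18.7 CPM per kb over the 48 libraries) and Osbpl1a (17.9) had the highest levels of the 10 members. Osbpl9 encodes a carrier of the ER and Golgi, and Osbpl1a one that senses cholesterol on late endosomes. Osbpl2 (8.43), Osbpl8 (6.27), Osbpl3 (5.94) and Osbpl11 (5.44 CPM per kb) followed. Osbpl5 (1.59) and Osbpl7 (1.0 CPM per kb) were lower, and Osbpl10 (0.0933) and Osbpl6 (0.0607 CPM per kb) were very low, with 0 to 27 and 0 to 30 reads per library. The ratio of the highest to the lowest group mean was 23.5 for Osbpl3, 4.63 for Osbpl10, 2.23 for Osbpl5, 2.05 for Osbpl7 and 1.91 for Osbpl6, and between 1.20 and 1.60 for Osbpl1a, Osbpl2, Osbpl8, Osbpl9 and Osbpl11. Osbpl3 made up 16.8% of the members' summed CPM per kb in male HFCF controls and 0.870% in female LF labelled knockouts.

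Osbpl3 encodes a carrier of ER to plasma membrane contacts that binds the small GTPase R-Ras. In male HF controls it was found at 79.4 to 112 CPM (median 101), and in male HF labelled knockouts at 7.57 to 23.6 CPM (median 10.7). All 6 labelled knockouts lay below all 6 controls. The group means were 99.5 ± 12 and 13.1 ± 5.9 CPM (SD, n = 6), a log2 difference of -2.94 (SE 0.21). On the HFCF diet, male controls measured 74.1 to 121 CPM (median 110.2) and labelled knockouts 66.0 to 106 CPM (median 81.4). These groups overlapped, with means of 105 ± 17 and 85.2 ± 14 CPM and a log2 difference of -0.31 (SE 0.12). The labelled-knockout effect was thus 2.61 log2 units (SE 0.26) less negative on HFCF than on HF in males. It is the value for which Osbpl3 was chosen and is not tested here.

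**Figure D1:**
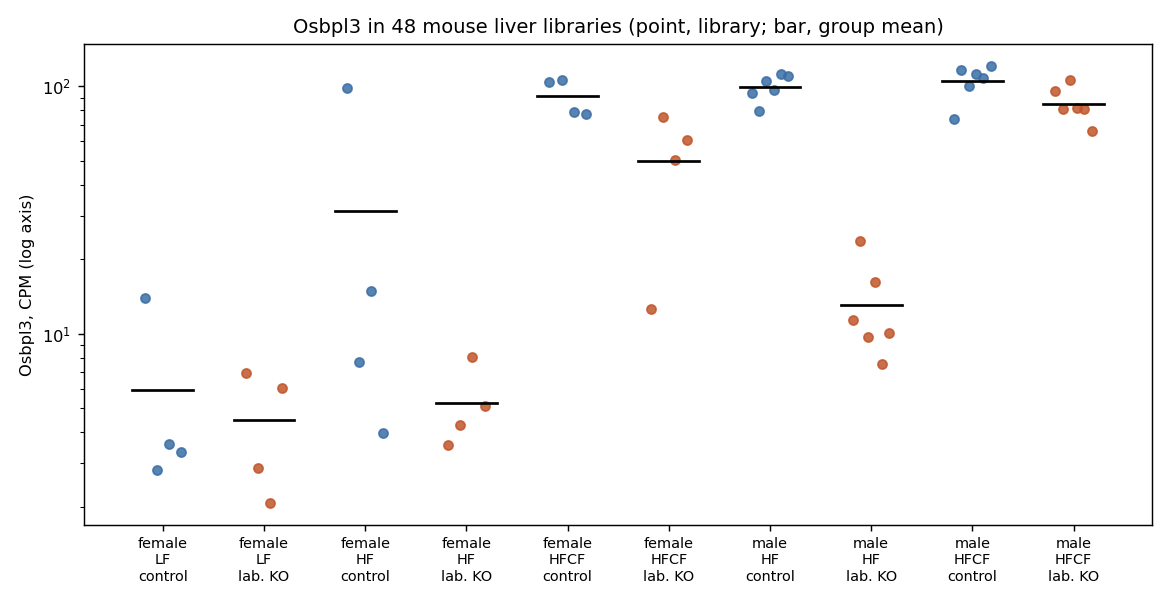
Osbpl3 level in each of the 48 liver libraries, in CPM on a log axis, by group; points are libraries (blue, control; orange, labelled knockout) and bars are group means. The 6 male HF labelled knockouts sit at 7.57 to 23.6 CPM, below every male HF control, and most female LF and HF livers sit under 15 CPM.

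In female livers Osbpl3 was low on LF and HF and high on HFCF. Female LF controls measured 13.9, 2.81, 3.59 and 3.34 CPM, and LF labelled knockouts 6.96, 2.87, 2.08 and 6.03 CPM. Female HF controls measured 98.6, 7.68, 14.9 and 3.98 CPM, and HF labelled knockouts 3.55, 4.28, 8.03 and 5.13 CPM. Replicate 1 of the HF controls reached the level of male HF controls, while the other three lay in or near the range of the LF livers. Female HFCF controls measured 104, 106, 78.7 and 77.3 CPM, and HFCF labelled knockouts 12.6, 75.2, 50.6 and 60.9 CPM. All 4 HFCF controls lay above the 4 HFCF labelled knockouts, and replicate 1 of the latter was far below its group.

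Ordered by group mean, Osbpl3 was highest in male HFCF controls (105 CPM), male HF controls (99.5), female HFCF controls (91.3) and male HFCF labelled knockouts (85.2). Female HFCF labelled knockouts (49.8), female HF controls (31.3) and male HF labelled knockouts (13.1 CPM) came next. Female LF controls (5.91), female HF labelled knockouts (5.25) and female LF labelled knockouts (4.48 CPM) were lowest. The library ranges of every pair of neighbours in this order overlapped.

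HFCF raised Osbpl3 in female livers. Against LF it rose in controls by 3.93 log2 units (SE 0.45; 95% interval 3.05 to 4.81; edgeR quasi-likelihood adjusted p = 0.000475) and in labelled knockouts by 3.52 (SE 0.51; 2.52 to 4.53; adjusted p = 0.00276), and the groups did not overlap in either case. Against HF it rose in labelled knockouts by 3.25 (SE 0.49; adjusted p = 0.00421), again without overlap. Of all genes tested, 18.4%, 8.26% and 8.44% rose in these comparisons, and 35.2%, 12% and 14.5% were called in either direction. Between the HFCF and HF controls the difference was 1.54 (SE 0.81; adjusted p = 0.169). Without HF control replicate 1 it was 3.37 (adjusted p = 0.000127), and with all 10 groups in one fit it was 1.54 and passed (adjusted p = 0.0163). That fit takes its spread partly from the male libraries on which Osbpl3 was chosen, so this pass is not separate support. The HFCF labelled knockouts enter 2 of these comparisons and the HFCF controls the others, so the comparisons share libraries.

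Between HF and LF females the Osbpl3 differences did not pass the test. They were 2.42 (SE 0.97; 95% interval 0.52 to 4.32; adjusted p = 0.258) in controls, or 0.59 without HF control replicate 1, and 0.24 (SE 0.39; -0.53 to 1.02; adjusted p = 0.836) in labelled knockouts. When all 10 groups shared 1 estimate of the spread, the control difference of 2.4 passed (edgeR adjusted p = 0.00731). That estimate includes the male libraries on which Osbpl3 was chosen, so this pass is not separate support either. For comparison, the described difference between HFCF and HF in males was 0.11 (SE 0.11) in controls and 2.72 (SE 0.22) in labelled knockouts.

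The labelled-knockout effect on Osbpl3 did not pass the test on any diet in females. The log2 difference was -0.39 (SE 0.55; adjusted p = 1.0) on LF, -2.57 (SE 0.91; adjusted p = 0.593) on HF and -0.85 (SE 0.39; 95% interval -1.61 to -0.10; adjusted p = 0.555) on HFCF. Of all genes tested, 0% were called on LF, 0% on HF and 0.0534% on HFCF. The HF value rested on control replicate 1 and was -0.74 without it, and the HFCF value was -0.54 without labelled-knockout replicate 1. The LF value turned to 0.47 without control replicate 1. By a two-sided exact permutation test of log2 CPM, p was 0.8 on LF, 0.2 on HF and 0.0286 on HFCF, the last being the smallest that 4 against 4 libraries allow. Adjusted over the 3 diets by the Benjamini-Hochberg method, the HFCF value was 0.0857 in that exact test. When all 10 groups shared 1 estimate of the spread, the HF value passed the threshold (edgeR adjusted p = 0.0454). That estimate includes the male libraries on which Osbpl3 was chosen, so this pass is not separate support.

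The test of a diet-dependent labelled-knockout effect on Osbpl3 in females did not pass either. HFCF minus HF gave 1.72 (SE 1.03; 95% interval -0.30 to 3.74; adjusted p = 0.958), and -0.12 without HF control replicate 1. HF minus LF gave -2.16 (SE 1.14; adjusted p = 0.999), or -0.35 without that library. The described difference between male and female effects was -0.37 (SE 0.82) on HF and 0.55 (SE 0.38) on HFCF.

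Markers of some other cell types moved with Osbpl3 in some of these libraries. Female HF control replicate 1 had 7 stellate cell markers summing to 581 CPM against 75.6 to 149 in the other three, and 4 biliary markers summing to 28.1 against 8.42 to 9.59 CPM. Female LF control replicate 1, the highest of its group for Osbpl3, had a stellate sum of 309 against 144 to 176 CPM and a biliary sum of 22.1 against 11 to 15.1 CPM. Female HFCF labelled-knockout replicate 1 had a stellate sum of 433 against 689 to 872 CPM and a hepatocyte sum of 114140 against 61563 to 79920 CPM. The hepatocyte sum was the lowest of its group in the HF library (92671 against 103546 to 113631 CPM). In the LF library it was the highest (115583 against 91383 to 106366 CPM), so hepatocyte sums did not run in a single direction with Osbpl3. The lymphocyte sum of the LF library was 12.4 against 5.75 to 8.03 CPM. The macrophage sums of these HF, LF and HFCF libraries (280, 288 and 630 CPM) lay inside the range of the rest of their groups. So did the endothelial sums of the HF and HFCF libraries (196 and 236 CPM), while that of the LF library (152 CPM) was the lowest of its group. In male HF livers the stellate sum was 156 to 246 CPM in labelled knockouts and 279 to 478 CPM in controls, and 4 of the 7 stellate markers were lower by test (Col1a1, Col1a2, Col3a1 and Pdgfrb), while 4 of the 6 hepatocyte markers were higher. Of 8 macrophage markers 3 were lower there (Gpnmb, Trem2 and Itgax, changes of -1.76, -1.09 and -0.83) and 1 was higher (Clec4f, 0.56), and of 5 endothelial markers 1 was lower (Lyve1, -0.69), where 18.5% of all genes were called. No stellate marker was at 0 in any of these libraries. Their part in the Osbpl3 values was not tested.

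Of the 7 other members that passed the filter on low counts in HF males, 3 fell with the labelled knockout and none rose, where 9.88% of the 14041 genes tested fell and 18.5% were called in either direction. Their median log2 change was -0.01, against 0.00 over all genes. Osbpl5, an ER-anchored protein that exchanges phosphatidylserine for PI4P, was at 7.88 to 14 CPM in controls (median 10.4) and at 4.29 to 7.04 CPM in labelled knockouts (median 5.45). The groups did not overlap, and the log2 change was -0.93 (SE 0.17; edgeR adjusted p = 0.00149). Osbpl7, of the same subgroup as Osbpl3, was at 4.02 to 7.07 CPM in controls (median 5.17) and 2.97 to 4.10 CPM in labelled knockouts (median 3.74). The ranges touched in 1 library of each group, and the change was -0.54 (SE 0.14; adjusted p = 0.0164). Osbpl11, a carrier of the Golgi and late endosomes, was at 28.3 to 34.5 CPM in controls (median 31.2) and 23.7 to 28.8 CPM in labelled knockouts (median 26.9). Its change was -0.25 (SE 0.06; adjusted p = 0.0119), with a small overlap.

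The other members tested in HF males did not pass. Osbpl1a differed by -0.01 (95% interval -0.12 to 0.11) and Osbpl8 by 0.00 (-0.16 to 0.16). Osbpl2, which brings cholesterol to the plasma membrane, differed by 0.09 (-0.02 to 0.20), and Osbpl9 by 0.14 (0.02 to 0.27; adjusted p = 0.138). Osbpl9 overlaps Nrd1 on the opposite strand and the libraries were not strand specific, so its values are uncertain. Osbpl6 and Osbpl10 were filtered out here as too low. Osbpl10 had 0.459 to 0.808 CPM in controls and 0 to 0.436 CPM in labelled knockouts, without overlap, but it shares its locus with Rps27rt (up to 56 reads a library), so its reads are uncertain too.

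**Figure D2:**
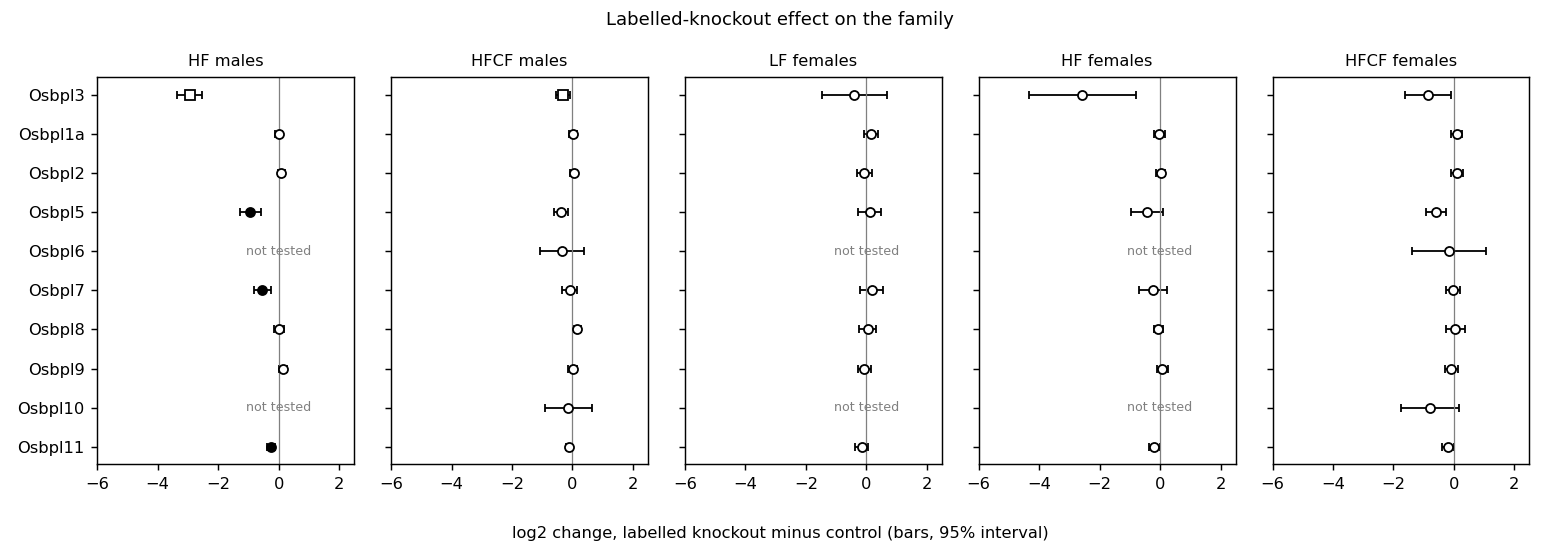
Log2 change of each member with the labelled knockout in 5 comparisons, with 95% intervals. Filled circles have an adjusted p under 0.05, and members marked not tested were filtered out. Squares are Osbpl3 in males, as a description only. Osbpl3 was chosen on these male libraries, so its intervals there are no test of an effect. The filled circles are Osbpl5 (-0.93), Osbpl7 (-0.54) and Osbpl11 (-0.25), all in HF males; Osbpl3 has none.

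In HFCF males 0 of the 9 other members were called by edgeR's quasi-likelihood test (2.21% of all genes tested were), with 3 at an unadjusted p under 0.05 and 0 by DESeq2's Wald test. Osbpl5 differed by -0.38 (95% interval -0.62 to -0.14; adjusted p = 0.133), Osbpl7 by -0.10 (-0.35 to 0.16; adjusted p = 0.803) and Osbpl11 by -0.12 (-0.23 to -0.01; adjusted p = 0.336). In females 0 members were called on each diet by both tools, with 0 of 8 tested on LF, 1 of 8 on HF and 2 of 10 on HFCF at an unadjusted p under 0.05. Osbpl5 differed by -0.44 (SE 0.27) on HF and -0.59 (SE 0.17; adjusted p = 0.49) on HFCF. On HFCF its controls measured 9.33, 10.6, 11.8 and 8.37 CPM and its labelled knockouts 4.78, 6.51, 7.27 and 7.57 CPM, which do not overlap. The share of all genes without overlap is not given here, so this is a description only. Osbpl11 differed by -0.16, -0.19 and -0.18 on LF, HF and HFCF (adjusted p = 1.0, 0.656 and 0.577).

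Whether these effects differ between diets or sexes was tested for the other members. In males, HFCF minus HF gave 0.54 (SE 0.22; adjusted p = 0.204) for Osbpl5, 0.42 (SE 0.19; adjusted p = 0.259) for Osbpl7 and 0.12 (SE 0.08; adjusted p = 0.488) for Osbpl11. No member was called in this test or in the other 4 interaction tests, and 3 of 9 in males, and at most 1 in each of the others, had an unadjusted p under 0.05. Over all genes 1.56% were called in that male test and 0% in the other 4. So the fall of the 3 members in HF males was not shown to differ from their change on HFCF or in females.

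**Figure D3:**
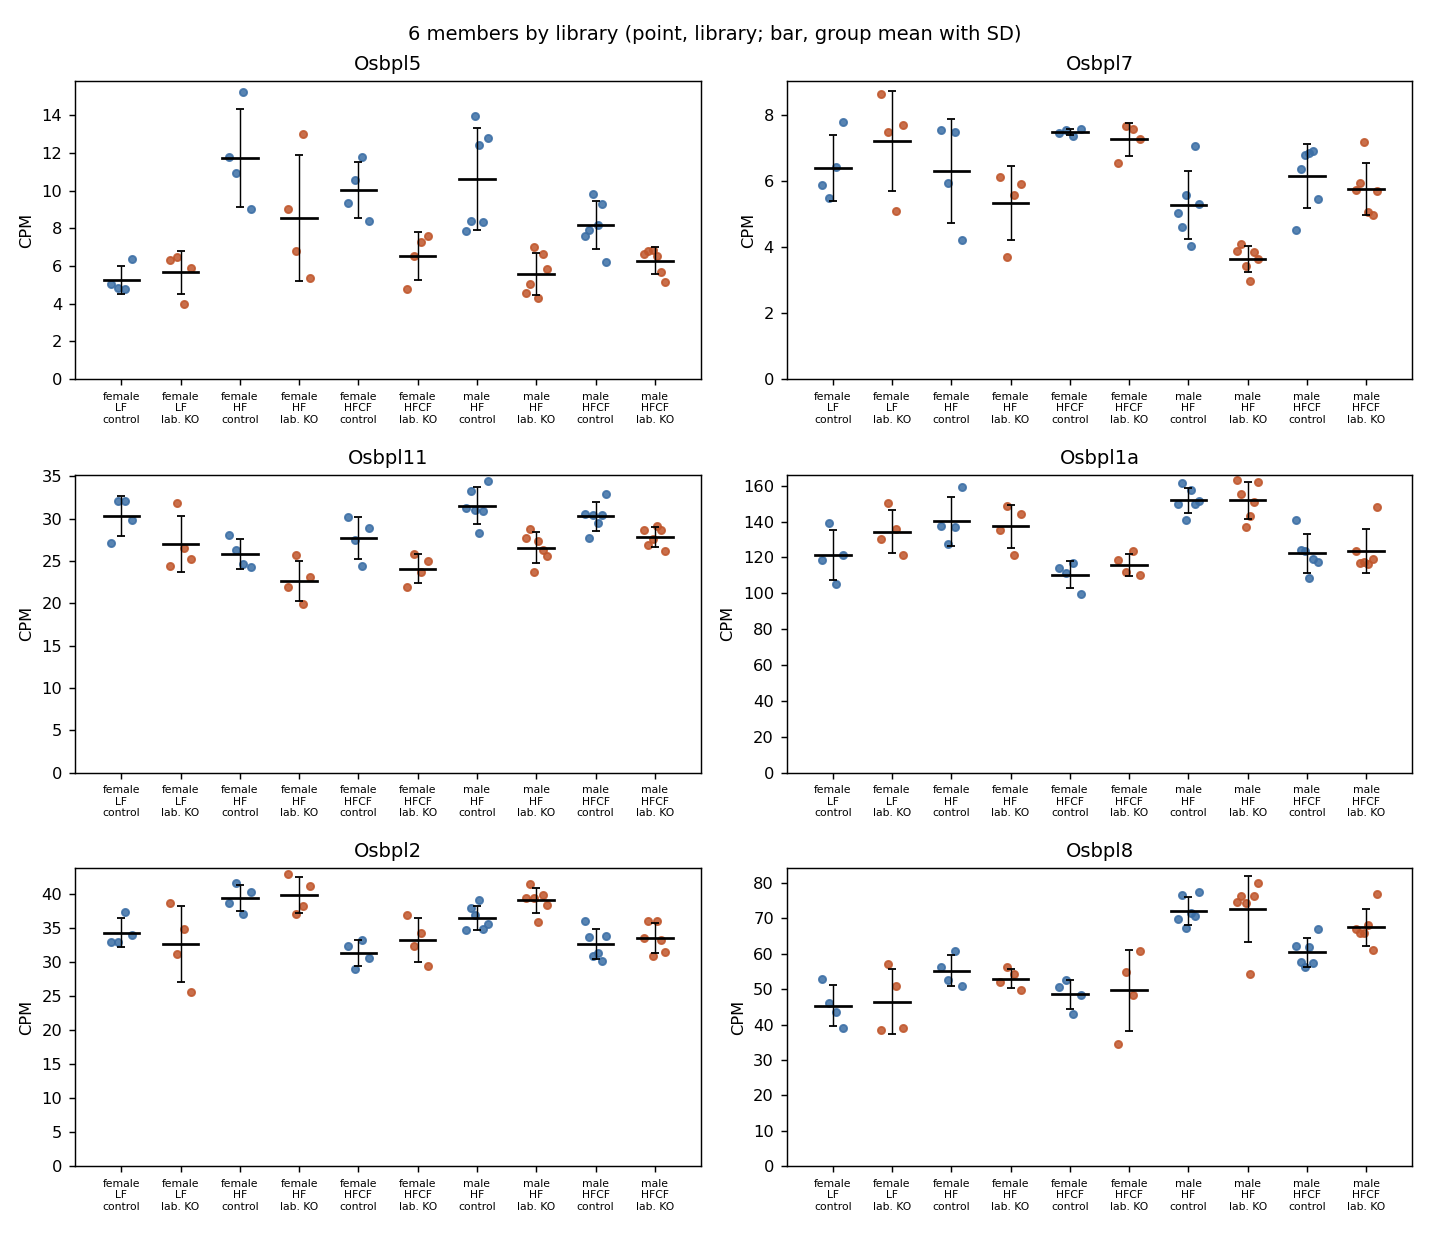
CPM of Osbpl5, Osbpl7, Osbpl11, Osbpl1a, Osbpl2 and Osbpl8 in each library (blue, control; orange, labelled knockout), with group mean and SD; each axis starts at 0. Osbpl5 controls and labelled knockouts do not overlap in HF males or HFCF females, and Osbpl1a and Osbpl2 are lower on HFCF than on HF in most libraries. The Osbpl5 difference in HFCF females did not pass the test (edgeR adjusted p = 0.49).

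The diets moved the other members that passed the filter by at most 1.17 log2 units. In male controls HFCF against HF lowered 2 of the 9 other members (9.31% of all genes fell and 22.3% were called) and in male labelled knockouts it raised 1 and lowered 2 of 8 (21.6% of all genes rose, 20% fell and 41.7% were called), so neither count stands far from the background. Osbpl1a fell by 0.29 on the log2 scale in controls (SE 0.06; adjusted p = 0.00436), from 152 ± 7.2 to 122 ± 11 CPM (SD, n = 6). It fell by 0.28 in labelled knockouts (SE 0.07; adjusted p = 0.00425), from 152 ± 10 to 124 ± 12 CPM. Osbpl8, the ER-anchored relative of Osbpl5, fell by 0.23 in controls (SE 0.05; adjusted p = 0.00826), and all 6 HFCF livers (56.1 to 66.9 CPM) lay below all 6 HF livers (67.2 to 77.4 CPM). With all 10 groups in one fit the Osbpl8 difference no longer passed (adjusted p = 0.0624). Osbpl2 fell by 0.21 in labelled knockouts (SE 0.06; adjusted p = 0.0103). Osbpl7 rose in labelled knockouts by 0.68 (SE 0.13; adjusted p = 0.000601), from 2.97 to 4.10 CPM on HF to 4.97 to 7.17 CPM on HFCF, with no overlap.

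In female controls HFCF against HF lowered 2 of 9 members, where 13.8% of all genes fell and 30.8% were called. Osbpl2 measured 38.8, 41.6, 37.1 and 40.4 CPM on HF and 32.3, 28.9, 33.3 and 30.7 CPM on HFCF. Its HFCF libraries all lay lower, by -0.32 (SE 0.07; adjusted p = 0.0124). Osbpl1a measured 137, 127, 137 and 159 CPM on HF and 114, 111, 117 and 99.8 CPM on HFCF, a difference of -0.33 (SE 0.09; adjusted p = 0.0209). The groups did not overlap, but its adjusted p was under 0.05 in only 4 of 8 fits made with 1 library omitted. In female labelled knockouts only Osbpl3 of the 9 members tested was called, where 8.44% of all genes rose and 14.5% were called in either direction.

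Osbpl5 was the only member tested that was called higher on both rich diets, HF and HFCF, than on LF in female controls. LF controls measured 5.07, 4.84, 4.79 and 6.36 CPM, HF controls 11.8, 11, 15.3 and 9.0 CPM, and HFCF controls 9.33, 10.6, 11.8 and 8.37 CPM. Both rich diets lay wholly above LF. The difference was 1.17 (SE 0.18; adjusted p = 0.0288) for HF, where 0.443% of all genes rose and 0.696% were called, and 0.92 (SE 0.15; adjusted p = 0.00197) for HFCF. With 1 library omitted in turn, HF was still called in 3 of 8 fits (adjusted p up to 0.0995) and HFCF in 8 of 8. In labelled knockouts the differences were 0.62 (SE 0.28; adjusted p = 0.376) and 0.25 (SE 0.22; adjusted p = 0.510). Between HF and LF controls, 5 of the 8 members tested had an unadjusted edgeR p under 0.05. Their median log2 change was 0.22 over the 8, against -0.002 over all genes. The share of all genes at that unadjusted level is not given here. Of the 8 members tested between HF and LF in labelled knockouts 0 were called by edgeR or DESeq2, with 1 at an unadjusted p under 0.05, and 0.155% of all genes were called.

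**Figure D4:**
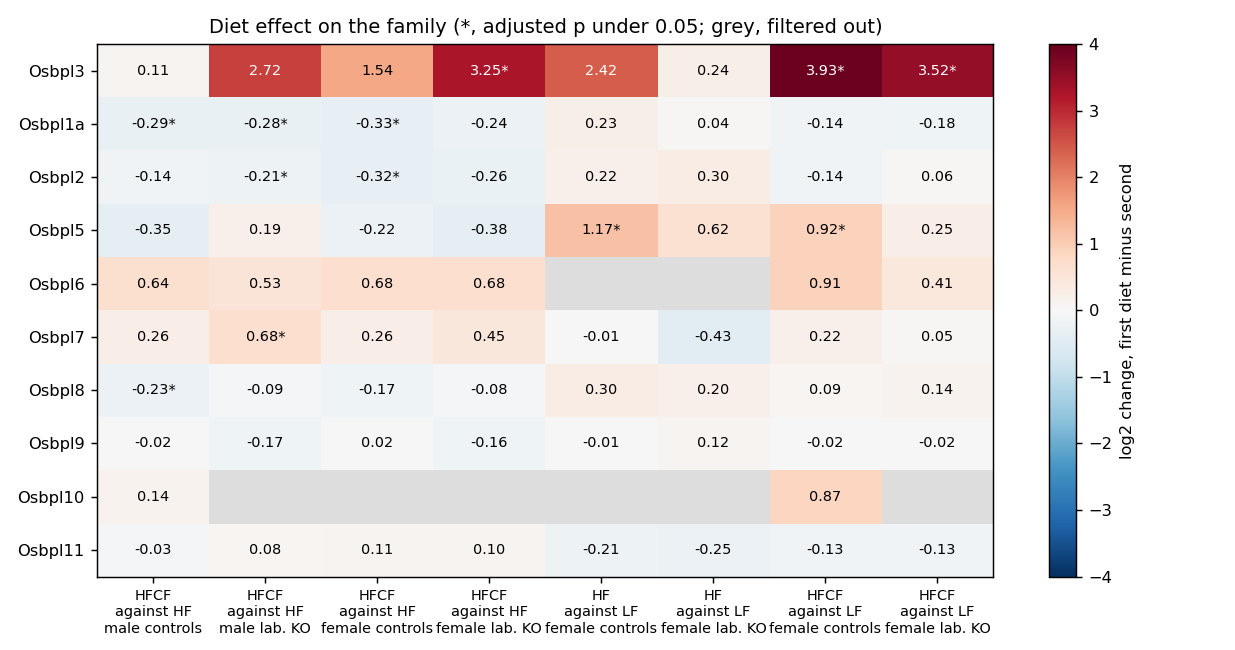
Log2 change of each member in 8 diet comparisons (columns; first diet minus second), in colour and as numbers; an asterisk marks an adjusted p under 0.05, grey a member filtered out, and Osbpl3 in males is a description. Osbpl3 reaches 3.93 between HFCF and LF female controls, and no other member exceeds 1.17.

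Many markers of other cells were higher on the HFCF diet as well. Against HF, 6 of 7 stellate markers, 4 of 4 biliary markers and 6 of 8 macrophage markers were higher in male controls, and 6, 4 and 6 in male labelled knockouts. In these labelled knockouts 1 macrophage marker was lower, and 1 of 5 endothelial and 1 of 5 lymphocyte markers were higher. Hepatocyte markers were lower in 3 of 6 and 6 of 6. In females against HF, 3 stellate, 4 biliary and 6 macrophage markers were higher in controls and 7, 4 and 3 in labelled knockouts, while 5 and 0 hepatocyte markers were lower and 4 and 1 of 5 endothelial markers were higher. In females against LF, 5 stellate, 4 biliary and 6 macrophage markers were higher in controls and again 5, 4 and 6 in labelled knockouts, while 6 and 0 hepatocyte markers were lower. In those controls 3 of 5 endothelial markers were higher and 1 was lower, and 2 of 5 lymphocyte markers were lower. Of all genes, 22.3% and 41.7% were called in the male comparisons, 30.8% and 14.5% in females against HF, and 35.2% and 12% in females against LF. The part of cell makeup in the diet differences of the members was not tested.

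The other 2 genes of the family gave these values. Osbp, the founding member, was at 16.9 CPM per kb over the 48 libraries and was called in 1 comparison, where it rose by 0.34 in HFCF against LF female controls (adjusted p = 0.0174). Osbp2, at 0.281 CPM per kb, fell on HFCF against HF by 1.25 in male labelled knockouts (adjusted p = 0.00581), by 1.85 in female controls (adjusted p = 0.0279) and by 1.5 in female labelled knockouts (adjusted p = 0.0307). Osbp2 group means lay between 0.517 and 5.30 CPM.

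Some genes that supply or remove the exchanged lipids were called in HF males. Of 9 genes of PI4P supply and removal, 4 fell with the labelled knockout and 0 rose (median change -0.11), where 9.88% of all genes fell and 18.5% were called. Pitpnm1, a phosphatidylinositol transfer protein, fell by 0.82 (SE 0.11; adjusted p = 0.000118). Pi4ka, the PI4P-making kinase of the plasma membrane, fell by 0.34 (SE 0.06; adjusted p = 0.00128), and Pitpnm2 fell by 0.25. In phosphatidylserine synthesis, Ptdss1 rose by 0.27 and the decarboxylase Pisd fell by 0.28 (adjusted p = 0.00339 and 0.0364). Of 12 other lipid transfer genes, Gramd1c, an ER sterol carrier, rose by 0.35 and Plekha8, a glycolipid carrier, fell by 0.41 (adjusted p = 0.00415 and 0.00117). Of 9 ER anchors and binding partners, 1 rose, the VAP-like Mospd3 (0.23). In HFCF males, where 2.21% of all genes were called, Pisd alone was called in these lists (-0.31; adjusted p = 0.0274), and in the female labelled-knockout comparisons 0 genes of these lists were, with at most 3 of a list at an unadjusted p under 0.05. The difference between the diets in males passed the test for Pi4ka (0.32; adjusted p = 0.0432) and Plekha8 (0.53; adjusted p = 0.0106), against 1.56% of all genes.

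On the HFCF diet Gramd1b, an ER protein that takes cholesterol from the plasma membrane, rose in all 6 comparisons with HF or LF, by 1.30 to 1.85. In male controls it went from 6.01 ± 1.2 to 18.8 ± 3.6 CPM (SD, n = 6; adjusted p = 3.33e-05). Stard4, a soluble sterol carrier, fell in 5 of the 6, by 1.19 in male controls (from 169 ± 35 to 72.9 ± 20 CPM). Ptdss1 fell in 5 of the 6, by 0.20 to 0.56. Between HF and LF females, 0 genes of these lists were called by edgeR's test, and 6 of the 12 other lipid transfer genes in controls and 1 in labelled knockouts had an unadjusted p under 0.05. The comparisons share groups and are not separate evidence.

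Among 13438 genes averaging 1 CPM or more, the 5 nearest to Osbpl3 over the 10 groups were Ubd (root mean square distance 0.391), Sprr1a (0.443), Fam83a (0.487), Themis (0.509) and Smpd3 (0.549). Distances were taken between group means of log2 CPM, with each gene centred on its mean over the groups. A gene with the same mean in every group would lie at 1.81. Ubd encodes a ubiquitin-like protein, Sprr1a a cornified envelope protein, Themis a T cell signalling protein and Smpd3 a neutral sphingomyelinase. Ubd fell from 12.4 CPM in male HF controls to 2.73 in labelled knockouts, and measured 24.8 and 15.9 CPM in the HFCF males. All 5 were highest of the 4 female HF controls in replicate 1, for example Ubd at 9.0 CPM against 0 to 0.996, and lowest in HFCF labelled-knockout replicate 1. Those libraries, and the male groups on which Osbpl3 was chosen, helped to set the likeness. The shared pattern follows from how these 5 genes were picked and is a description only. Of the other members compared, Osbpl5 lay nearest, at 1.67, with 2830 genes nearer to Osbpl3. The founding gene of the family, Osbp, lay at 1.64 with 2366 genes nearer. Osbpl6 and Osbpl10 averaged under 1 CPM and were not compared.

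**Figure D5:**
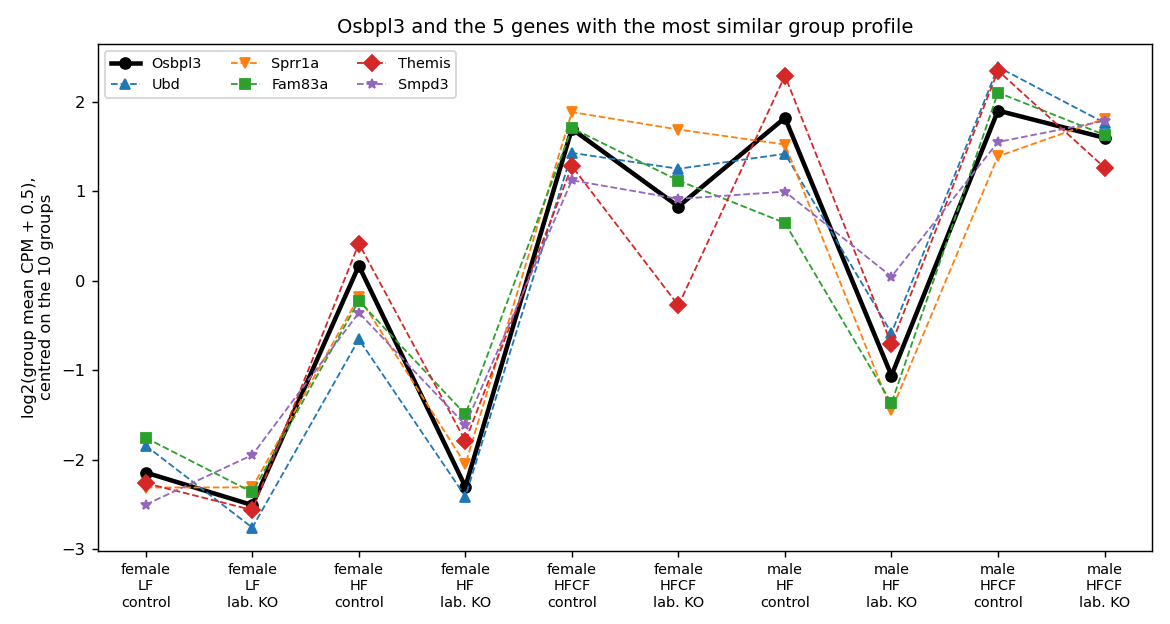
Log2 of the group mean CPM plus 0.5, centred on the 10 groups, for Osbpl3 (black) and the 5 genes with the nearest profile. Nearness was ranked on group means of log2 CPM instead, which differ from the plotted values where a group holds an outlying library. All 6 genes are low in female LF and female HF labelled-knockout livers and lower in male HF labelled knockouts than in male HF controls. The 5 genes were picked for likeness over all 10 groups, so this shared pattern is a description only.

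Promoter windows of 300 bases (RefSeq, GRCm38.p6) were searched for 8 members, 12 windows in all. The direct repeat AGGTCANAGGTCA, on either strand, was in 0 of the 12 and in 0.0396% of all 32851 windows. The single unit AGGTCA, which the repeat also contains, was in 1 of the 12, that of Osbpl2, and in 16.3% of all windows. These letters were searched only in those windows, while Osbpl3 transcripts start at 9 distinct positions over 155847 bases in GENCODE M21.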

How the data were processed

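Whole-liver RNA of 48 mice was sequenced from libraries that were not strand specific, per the labels' protocols. The values are raw read counts per gene, which the authors deposited in 11 tables without normalization, per the file headers. The submitters' processing notes name STAR 2.6.1, HTSeq 0.6.1, DESeq2 and GRCm38 (mm10), with no roles given. The tables were joined by gene identifier (1341082 repeated values, 0 differing), and a gene absent from a table was set to 0 there.

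CPM were computed with TMM factors. Comparisons used edgeR 4.0.16 (R 4.3.3) on the groups concerned: filterByExpr, quasi-likelihood F test, Benjamini-Hochberg adjustment over all genes tested, and calls at an adjusted p under 0.05. The edgeR test was tried on simulated counts for some of the comparisons only. Those counts held no added outlying library, and the outcome is not given here. Replicates are separate livers. Differences are log2, first group minus second, with normal 95% intervals. These intervals allow neither for the small groups nor for the many genes tested, so calls rest on the adjusted p alone. Alternatives were DESeq2 1.42.0 size factors, its Wald test, no filter, at least 10 reads in every library, all 10 groups in one fit, the replicate block, and omission of each library.

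Named genes are the 10 members, Pparg, at most 3 called genes per list and comparison, and the 5 nearest to Osbpl3. The members and the lists were chosen with earlier results of these data known. Of 88 listed genes, 86 were in the tables. Cell type markers are hepatocyte, macrophage, stellate, endothelial, biliary, lymphocyte, adipocyte and pancreas lists, given as summed CPM; endothelial sums were 115 to 308 and lymphocyte sums 3.27 to 12.4 CPM over the 48 libraries.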

Additional observations from a re-analysis of the deposited data

Results flagged for a closer look

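Of 120 sets, each 1 gene in 1 group, checked for a library far from the rest, 5 had one. Chance alone gives about 1 in 20, so this number is no larger than chance gives. The sets reuse the same 48 libraries and are not separate. Osbpl3 in female HFCF labelled-knockout replicate 1 was not among those flagged. Osbpl3 stood at 13.9 CPM in female LF control replicate 1 and at 98.6 CPM in female HF control replicate 1, well above the other three libraries of each group. Osbpl1a stood at 148 CPM in male HFCF labelled-knockout replicate 6, above the other five. Osbpl8 stood at 54.2 CPM in male HF labelled-knockout replicate 4, below the other five, and Osbpl9 at 149.8 CPM in female LF labelled-knockout replicate 3, above the other three.

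Osbpl10 differed in the direction of the labelled-knockout effect between groups, with every labelled-knockout library on opposite sides of its control mean. The difference of mean CPM effects was -0.579 for females HFCF minus HF, 0.420 for females HF minus LF and -0.614 for HF males minus females. These differences were not tested on CPM; on counts Osbpl10 was called in none of the interaction tests in which it passed the filter, and it has at most 27 reads in any library.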

How the results depend on the processing

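With all 10 groups in one fit, the number of members called went from 0 to 1 for the labelled-knockout effect in HF females, from 2 to 1 for HFCF against HF in male controls, from 2 to 4 in female controls and from 1 to 3 in female labelled knockouts, from 1 to 2 for HF against LF in female controls and from 0 to 1 in female labelled knockouts. Osbpl3 was among those added in HF females and, in female controls, for HFCF against HF and HF against LF. The spread in that fit comes partly from the male libraries on which Osbpl3 was chosen, so these passes are not separate support. With the replicate number as a block the number called went from 2 to 0 for HFCF against HF in female controls and from 1 to 0 for HF against LF in female controls (edgeR adjusted p = 0.132 for Osbpl2, 0.171 for Osbpl1a and 0.0628 for Osbpl5). Same-numbered libraries did not deviate together in every pair in any comparison (correlations -0.295 to 0.461). Smaller moves under other settings were from 3 to at most 4 for the labelled-knockout effect in HF males and for HFCF against HF in male labelled knockouts. With 1 library left out, the number reached 4 in the latter. It also went from 2 to at most 3 for HFCF against HF in male controls and for HFCF against LF in female controls. Leaving out 1 library gave 1 to 4 members for HFCF against HF in female controls (4 without HF control replicate 1, with Osbpl3 and Osbpl10 added), 1 to 3 in female labelled knockouts (3 without HFCF replicate 1), 0 to 1 for HF against LF in female controls, and 0 to 1 for HF males minus females (Osbpl10, without HF female control replicate 1). The cause of these moves was not tested. The share of all genes called under these settings is not given here, so the counts cannot be set against it. The direction reversed only for values that had not passed: with 1 library left out, Osbpl3 ran from -0.69 to 0.47 on LF in females (0.47 without LF control replicate 1), from -0.061 to 0.54 for HF against LF in female labelled knockouts (-0.061 without HF replicate 3, -0.017 without LF replicate 3) and from -0.12 to 2.07 for HFCF minus HF in females (-0.12 without HF control replicate 1), and Osbpl7 from -0.043 to 0.017 on HFCF in females (0.017 without labelled-knockout replicate 1). The 3 members called in HF males were called in 12 of 12 fits without 1 library. Osbpl6 and Osbpl10 have too few reads for small differences to be detectable.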
